A study of Mus musculus with 12 samples.

Results

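The B and plasma cell genes described here are 9 genes of the B lymphocyte lineage: Ms4a1, Cd79a, Cd79b, Pax5, Cd22, Cr2, Blk, Jchain and Mzb1. They were chosen by name with their values in these libraries in view, from 39179 gene IDs in the deposited table, of which 37607 had a symbol. Prostate RNA was sequenced from null (-/-) mice and wild-type (+/+) mice for the gene under study, 6 libraries each. All mice were 4 months old, carried a hybrid 129/SvImJ and C57Bl/6J background and had been given paraquat, a superoxide-generating herbicide. No library from untreated mice was among those used here, so both genotypes share the treatment.

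B lymphocytes recognise antigen through a surface antibody molecule whose signal is carried into the cell by the Cd79a and Cd79b chains. After activation some become plasma cells, which secrete antibody. In mucosal and glandular tissues much of that antibody is IgA or IgM that the J chain has joined into polymers, and the epithelial receptor Pigr carries the polymers into secretions. In bulk tissue RNA, fewer cells of a type and less RNA per cell cannot be told apart.

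Libraries of each genotype fell into sets of 3 with closely similar values, libraries 1 to 3 and libraries 4 to 6. Separate animals are not marked in the labels. The p-values and SEs over all 12 libraries therefore measure only the spread between these libraries, which may be technical. Each SE of a genotype difference is from the fit over 12 libraries unless stated. Tests of genotype are therefore given over the 12 libraries and again over the 4 set means. Estimated depth ran from 14.8 to 21.7 M reads per library. Values are the authors' normalized log2 values. Genes with few reads scatter around a floor near 2, some of them well below it. The median SD within a set of 3 was 0.45 for genes averaging below 2.5, 0.38 for genes averaging 2.5 to 4, 0.2 for those averaging 5 to 6 and 0.05 for those averaging 10 to 12. Of 5 prostate epithelium genes, Epcam and Cdh1 were called higher in the null over the 12 libraries, Krt18 and Pbsn lower, and Krt8 was not called. The secretory gene Pbsn averaged 11.7 and 10.42 in the null sets, against 18.18 and 18.68 in the wild-type sets. All 5 seminal vesicle genes measured were called higher in the null, and Svs2 averaged 21.03 and 11.37 in the null sets, against 4.71 and 3.35 in the wild-type sets. Several of these genes also differed between sets of 1 genotype, and their part in the results below was not tested.

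All 9 genes passed the filter on low values, which asked for 4 or more on the log2 scale in at least 6 libraries. Pax5 reached 4 in 6 libraries, the fewest allowed, Cr2 in 9, Blk in 11 and the other members in 12. In GRCm38 coordinates of GENCODE M21, Ms4a1 lies on the minus strand at chr19:11249675-11266241. Cd79a lies on the plus strand at chr7:24897381-24902197, and Cd22 on the minus strand of the same chromosome at chr7:30865402-30880342. Cd79b lies at chr11:106311341-106314762, Pax5 at chr4:44524757-44710487 and Cr2 at chr1:195136811-195176716, all on the minus strand. Blk at chr14:63372836-63417037 and Jchain at chr5:88519809-88527891 are on the minus strand too. The whole of Ms4a1 is overlapped by the antisense gene 4930526L06Rik, and 20933 bases of Pax5 by the antisense gene Gm12462. The strand setting of the counting was not stated, and reads of such pairs cannot be told apart.

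RefSeq promoter sequences, 250 bases before to 50 after the start site in GRCm38.p6, matched 5 of the 9 genes. Those of Cd79a and Cd22 are shown for the members that moved together, and those of Cr2 and Jchain for the members whose pattern differed. Both strands were searched for the octamer ATGCAAAT, bound by Oct factors in antibody gene promoters, for TCCCNNGGGA, bound by the early B cell factor Ebf1, and for the E-box CAGGTG, bound by E proteins. Capitals mark matches on either strand, and no matches overlapped.
Cd79a: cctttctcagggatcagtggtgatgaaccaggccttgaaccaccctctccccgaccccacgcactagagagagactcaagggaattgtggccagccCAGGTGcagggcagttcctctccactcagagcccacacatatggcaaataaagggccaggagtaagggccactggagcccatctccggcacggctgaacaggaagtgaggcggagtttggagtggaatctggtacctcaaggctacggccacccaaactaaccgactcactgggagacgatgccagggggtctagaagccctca
Cd22: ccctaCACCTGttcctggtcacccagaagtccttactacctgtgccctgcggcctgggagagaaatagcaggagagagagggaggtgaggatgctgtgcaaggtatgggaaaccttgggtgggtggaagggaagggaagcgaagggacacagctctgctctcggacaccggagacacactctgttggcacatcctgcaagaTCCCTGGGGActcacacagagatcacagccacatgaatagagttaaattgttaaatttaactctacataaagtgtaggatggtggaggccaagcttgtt
Cr2: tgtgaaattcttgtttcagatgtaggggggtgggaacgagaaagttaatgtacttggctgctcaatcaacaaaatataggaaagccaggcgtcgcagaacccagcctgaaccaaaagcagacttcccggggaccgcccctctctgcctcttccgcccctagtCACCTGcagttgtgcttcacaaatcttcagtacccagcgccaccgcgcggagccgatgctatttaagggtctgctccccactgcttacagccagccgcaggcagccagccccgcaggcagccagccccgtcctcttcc
Jchain: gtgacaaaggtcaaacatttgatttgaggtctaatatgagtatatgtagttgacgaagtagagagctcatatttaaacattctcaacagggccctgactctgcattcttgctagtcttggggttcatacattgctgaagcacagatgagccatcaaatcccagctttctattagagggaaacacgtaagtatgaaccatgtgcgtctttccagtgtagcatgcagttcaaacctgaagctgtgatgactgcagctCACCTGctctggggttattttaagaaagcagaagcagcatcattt
The Cd79a window is chr7:24897247-24897546 on the plus strand. The Cd22 window is chr7:30878979-30879278, the Cr2 window chr1:195176670-195176969 and the Jchain window chr5:88527848-88528147, all on the minus strand. The E-box was in 4 of the 5 windows, all those shown, against 20.2% of 32851 promoters of the same length. The Ebf1 motif was in 1 window, that of Cd22, 49 bases before the start, against 0.904% of promoters. The octamer was in 0 of the 5, against 1.74% of promoters. A match is a description of the sequence and says nothing about binding in these samples.

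Ms4a1 encodes CD20, a surface protein of mature B cells. Its values were 5.89, 6.03 and 5.83 in null libraries 1 to 3 and 6.67, 6.7 and 6.5 in null libraries 4 to 6. In wild type they were 5.79, 6.4 and 5.93 in libraries 1 to 3 and 7.15, 7.36 and 7.13 in libraries 4 to 6. The 3 wild-type libraries 4 to 6 were the highest of all, and libraries 1 to 3 of the 2 genotypes overlapped. The mean was 6.27 ± 0.40 in the null and 6.63 ± 0.68 in wild type (SD, n = 6 each).

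Cd79a and Cd79b, the signalling chains of the antigen receptor, were highest in the same set, with a wider range. Cd79a stood at 5.75, 5.32 and 5.77 in null libraries 1 to 3 and at 6.43, 6.59 and 6.56 in null libraries 4 to 6. Its wild-type values were 5.58, 4.91 and 5.51 in libraries 1 to 3 and 7.08, 7.38 and 7.26 in libraries 4 to 6. Wild-type libraries thus held both the lowest and the highest Cd79a values, with the null libraries inside that range. Cd79b stood at 6.51, 6.23 and 6.45 in null libraries 1 to 3 and at 7.55, 7.19 and 7.29 in null libraries 4 to 6. Its wild-type values were 5.88, 5.98 and 6.04 in libraries 1 to 3 and 8.38, 8.54 and 8.33 in libraries 4 to 6. No libraries of different sets overlapped for Cd79b, and its wild-type sets differed by -2.45, libraries 1 to 3 minus 4 to 6. Over genotype the Cd79b mean was 6.87 ± 0.54 in the null and 7.19 ± 1.35 in wild type (SD, n = 6 each), so the spread within wild type exceeded the difference of -0.32.

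Cd22 encodes a sialic acid-binding lectin that damps antigen receptor signals. It stood at 5.88, 6.29 and 6.03 in null libraries 1 to 3 and at 7.03, 7.21 and 7.25 in null libraries 4 to 6. Wild-type values were 5.14, 5.41 and 5.43 in libraries 1 to 3 and 7.37, 7.4 and 7.24 in libraries 4 to 6. Libraries 4 to 6 of the 2 genotypes overlapped, the only such overlap among the 9 genes for the highest and second-highest sets. Cd22 averaged 6.61 ± 0.62 in the null and 6.33 ± 1.11 in wild type (SD, n = 6 each).

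Pax5 is the transcription factor that commits cells to the B lineage. It stood at 4.2, 3.75 and 3.12 in null libraries 1 to 3 and at 4.19, 3.96 and 4.42 in null libraries 4 to 6, which overlapped. Wild-type values were 3.27, 3.43 and 2.87 in libraries 1 to 3 and 5.58, 5.95 and 5.66 in libraries 4 to 6. The 3 wild-type libraries 4 to 6 lay above the other 9 libraries. Blk, a Src-family kinase of the B cell receptor, stood at 5.16, 4.91 and 4.99 in null libraries 1 to 3 and at 5.43, 5.14 and 5.37 in null libraries 4 to 6. Its wild-type values were 3.99, 4.62 and 4.34 in libraries 1 to 3 and 6.22, 6.03 and 6.24 in libraries 4 to 6. The null libraries of Blk lay together, between the wild-type sets. Blk averaged 5.17 ± 0.20 in the null and 5.24 ± 1.03 in wild type (SD, n = 6 each).

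Cr2 encodes a complement receptor carried by B cells and follicular dendritic cells. It did not follow the other members. Its values were 8.74, 8.83 and 8.86 in null libraries 1 to 3 but 4.56, 4.62 and 4.51 in null libraries 4 to 6. Wild-type values were 3.35, 3.18 and 3.24 in libraries 1 to 3 and 5.01, 4.44 and 5.42 in libraries 4 to 6. Null libraries 4 to 6 and wild-type libraries 4 to 6 overlapped, and null libraries 1 to 3 stood 4.24 above the other null set. The difference between genotypes of 2.58 therefore rests on 1 set, since null libraries 4 to 6 averaged 4.57, against 4.11 in wild type. The same 3 libraries had the summed linear level of 5 seminal vesicle genes at 2653206 to 2692584, against 112540 to 115093 in null libraries 4 to 6 and 42 to 199 in wild type. Svs2 and Svs5 carry that sum, and with Svs6 they were higher in null libraries 1 to 3. Svs3a and Svs4 were lower there, at 11.78 and 14.58, against 13.65 and 16.43 in null libraries 4 to 6. Whether the Cr2 reads came from B cells or from other cells was not tested.

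Jchain, which joins IgM and IgA into polymers, was the member with the highest level per length. It stood at 10.9, 10.92 and 10.91 in null libraries 1 to 3 and at 11.69, 11.67 and 11.59 in null libraries 4 to 6. Wild-type values were 9.98, 10.01 and 9.83 in libraries 1 to 3 and 10.05, 10.14 and 10.23 in libraries 4 to 6. Every null library was above every wild-type library, and Jchain was the only member of the 9 for which the genotypes did not overlap. The mean was 11.28 ± 0.41 in the null and 10.04 ± 0.14 in wild type (SD, n = 6 each), a difference of 1.24. Among all 16197 genes tested, 44.2% had no overlap between the genotypes, so this is not a rare pattern in the table.

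Mzb1 encodes a cofactor of antibody folding in marginal zone B cells and plasma cells. Its values were 6.36, 6.14 and 6.03 in null libraries 1 to 3 and 7.35, 7.29 and 7.42 in null libraries 4 to 6. Wild-type values were 5.93, 6.04 and 6.09 in libraries 1 to 3 and 8.14, 8.15 and 7.89 in libraries 4 to 6. Mzb1 thus had its highest values in wild-type libraries 4 to 6, like the B cell receptor genes and unlike Jchain. A gene annotated on the same strand, SPATA24, overlaps Mzb1 over 2100 bases, nearly its whole length. How reads there were assigned is not known.

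**Figure D1:**
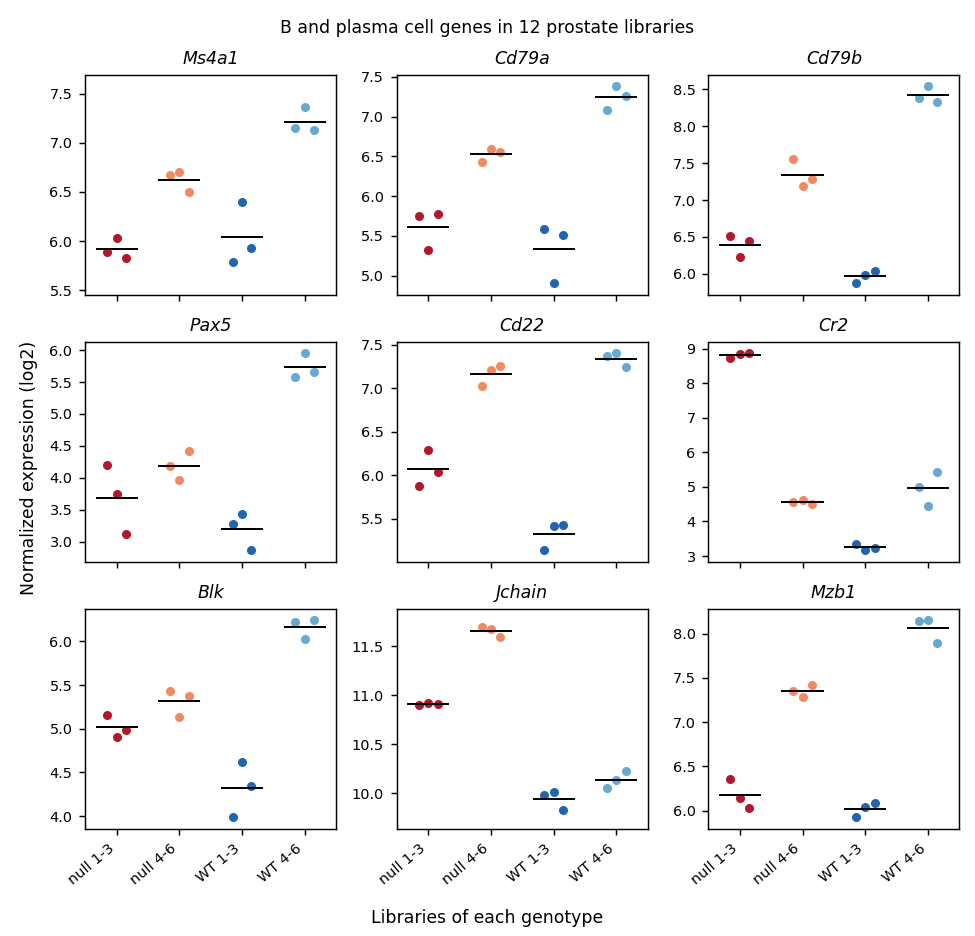
Normalized expression (log2) of the 9 B and plasma cell genes in each library, with null libraries 1 to 3 and 4 to 6 left of wild-type libraries 1 to 3 and 4 to 6. Points are libraries and bars are means of 3 libraries. Wild-type libraries 4 to 6 are highest for 7 genes, null libraries 1 to 3 for Cr2 (8.74 to 8.86) and null libraries 4 to 6 for Jchain (11.59 to 11.69).

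Set side by side, most members shared an order of the 4 sets. Wild-type libraries 4 to 6 had the highest mean for 7 members, null libraries 1 to 3 for 1 (Cr2) and null libraries 4 to 6 for 1 (Jchain). Wild-type libraries 1 to 3 had the lowest mean for 8 members, and null libraries 1 to 3 for Ms4a1. In wild type, libraries 1 to 3 lay wholly below libraries 4 to 6 for 9 of 9 members, with differences of -2.54 (Pax5) to -0.20 (Jchain) and a median of -1.91. Of all genes tested, 32.7% had wild-type libraries 1 to 3 wholly below, and the median difference was -0.012. In the null, libraries 1 to 3 lay wholly below for 6 of 9 members, wholly above for Cr2, and overlapped for Pax5 and Blk. The null median was -0.74, beside -0.029 over all genes tested, of which 35.7% lay wholly below. These set differences are among the values in view when the genes were chosen, so they are given without a test.

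Between genotypes 3 members were higher in the null (Cd22, Cr2 and Jchain) and 6 lower, with a median of -0.21 beside 0.052 over all genes. This median turned with the libraries used. It was 0.853 without wild-type libraries 4 to 6 and -0.994 without wild-type libraries 1 to 3. It was 0.242 without null libraries 1 to 3 and -0.671 without null libraries 4 to 6. Leaving out 1 library moved it between -0.404 (without wild-type library 2) and 0.005 (without wild-type library 5). Without wild-type library 4 it was -0.054, without wild-type library 6 -0.02, without null library 2 -0.065 and without null library 3 -0.126. It also turned with scaling. With each library scaled to the same linear total, 6 members were higher and 3 lower with a median of 0.1, while the median of all genes moved to 0.367. With quantile normalization 2 members were higher and 7 lower, with a median of -0.584.

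Jchain had the highest level per transcript length in all 4 sets. In linear units (2 raised to the log2 value) per kilobase of longest transcript, it averaged 822 and 1370 in null libraries 1 to 3 and 4 to 6, against 420 and 483 in the wild-type sets. Mzb1 averaged 80.4 and 181 in the null sets, against 71.9 and 296 in the wild-type sets. Cd79b averaged 59.1 and 114 in the null sets, against 43.7 and 239 in the wild-type sets. These 2 had the next highest levels in 3 of the sets, and in null libraries 1 to 3 Cr2 stood between them. Cr2 averaged 72.3 and 3.81 in the null sets, against 1.54 and 5.19 in the wild-type sets. Cd22 averaged 17.0 and 36.1 in the null sets, against 10.1 and 40.7 in the wild-type sets. Pax5 was lowest in 3 of the sets, at 1.69 and 2.3 in the null sets and 1.16 in wild-type libraries 1 to 3, and Cr2 was lowest in wild-type libraries 4 to 6, where Pax5 averaged 6.67. Near the floor the linear scale does not follow reads.

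A further 61 genes linked to the B lineage, none of them members, were fitted with the whole table. This B lineage list includes 6 ligands that recruit or keep B and plasma cells, and the epithelial receptor Pigr. Not all of its genes are therefore made by B lineage cells. Of these, 53 were tested, 6 fell below the filter and 2 (Ighd and Iglc1) were not analysed here. Over the 12 libraries limma called 17 higher and 9 lower in the null at an adjusted p of 0.05, with a median of 0.26. Over all genes it called 34.1% higher and 31.8% lower. The share of the list called higher was thus close to that of all genes, and the share called lower was smaller. With the 4 set means as replicates 0 were called higher and 2 lower by limma, beside 4.09% of all genes in either direction. At an unadjusted p under 0.05 in that fit, 10 of the 53 were higher and 5 lower. Of all 16197 genes, 5041 passed that unadjusted threshold in either direction. The split moved with scaling, to 26 higher and 5 lower with equal linear totals and 11 higher and 9 lower with quantile normalization.

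None of the 3 antigen receptor genes tested was called between genotypes by limma, and none had an unadjusted p under 0.05. Ighm, the heavy chain of IgM, averaged 13.46 ± 0.07 in the null and 13.49 ± 0.40 in wild type (SD, n = 6 each; adjusted p = 0.894, limma over 12 libraries). Igkc, the kappa light chain, differed by 0.26 ± 0.305 (SE; adjusted p = 0.467, limma). Iglc2, a lambda light chain, differed by -0.66 ± 0.656 (SE; adjusted p = 0.391, limma). Without wild-type libraries 4 to 6, all 3 were called higher in the null, Ighm by 0.34, Igkc by 0.88 and Iglc2 by 0.94 (adjusted p = 0.00206, 0.0175 and 0.0173, limma). Without wild-type libraries 1 to 3, Ighm (-0.38) and Iglc2 (-2.26) were called lower (adjusted p = 0.00116 and 5.83e-05, limma).

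Of 8 receptor signalling genes, 2 rose and 2 fell over the 12 libraries. Pik3ap1, an adaptor for phosphoinositide 3-kinase, averaged 9.95 ± 0.24 in the null and 8.55 ± 0.64 in wild type (SD, n = 6 each; adjusted p = 0.00034, limma). Lyn, a Src-family kinase also found in myeloid cells, rose by 0.33 ± 0.083 (SE). Blnk, the adaptor downstream of Syk, averaged 10.76 ± 0.12 in the null and 11.59 ± 0.27 in wild type (SD, n = 6 each; adjusted p = 4.22e-05, limma). Bank1, a scaffold of B cell receptor signalling, averaged 5.99 ± 0.26 in the null and 7.11 ± 0.25 in wild type (SD, n = 6 each; adjusted p = 3.41e-05, limma). None of these 4 was called over set means (adjusted p = 0.0919 for Blnk, 0.0931 for Pik3ap1, 0.0962 for Bank1 and 0.306 for Lyn, limma). In both genotypes Blnk and Pik3ap1 averaged above every member except Jchain, for example Cd79a at 6.07 in the null and 6.28 in wild type. Which cells made the Blnk and Pik3ap1 reads was not tested.

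Of 7 B cell transcription factors, 3 rose and 2 fell over the 12 libraries. Bach2, a repressor that holds back plasma cell differentiation, averaged 6.78 ± 0.71 in the null and 5.11 ± 0.52 in wild type (SD, n = 6 each), a difference of 1.68 ± 0.325 (SE; adjusted p = 0.000612, limma). Ebf1, also made by stromal cells and adipocytes, rose by 0.68 ± 0.175 (SE), and Bcl11a rose by 0.44 ± 0.151 (SE). Irf8, also a myeloid factor, fell by 0.49 ± 0.13 (SE), a call lost with equal linear totals (adjusted p = 0.281, limma), and Ikzf3 was the other gene that fell. None was called over set means, and with quantile normalization Ebf1 and Bcl11a were no longer called (adjusted p = 0.075 and 0.15, limma). Pou2af1 and Spib, coactivator and factor of B cells, were not called (adjusted p = 0.846 and 0.935, limma) and were named after their values were seen. Their set means repeated the order of most members, which no other factor tested shared. Bach2, Ebf1 and Bcl11a were higher in null libraries 1 to 3 than in null libraries 4 to 6. Pou2af1 averaged 6.58 and 6.98 in null libraries 1 to 3 and 4 to 6, against 5.54 and 7.81 in the wild-type sets. Spib averaged 5.76 and 6.26 in the null sets, against 4.94 and 7.17 in the wild-type sets.

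Of 15 B cell surface genes, 3 rose and none fell over the 12 libraries. Tlr9, the receptor for unmethylated DNA, rose by 1.07 ± 0.196 (SE), Cd180 by 0.85 ± 0.172 and the inhibitory receptor Cd72 by 0.49 ± 0.194. With quantile normalization Cd180 and Cd72 were not called (adjusted p = 0.0686 and 0.586, limma). Cd72 was also not called when any 1 of 6 libraries was left out (null 4, 5 or 6, wild type 1, 2 or 3). Btla, an inhibitory receptor shared with T cells, averaged 6.08 ± 0.44 in the null and 5.41 ± 0.74 in wild type (SD, n = 6 each; adjusted p = 0.0806, limma), and was called without wild-type library 4 and with equal linear totals (0.98). Neither of the 2 germinal centre genes tested was called, with Bcl6 at 9.30 ± 0.09 in the null and 9.25 ± 0.36 in wild type (SD, n = 6 each). S1pr2, a receptor that confines germinal centre B cells, averaged 7.52 ± 0.18 in the null and 7.35 ± 0.07 in wild type (SD, n = 6 each; adjusted p = 0.13, limma), and was called with equal linear totals (0.48) and with upper-quartile centring (0.24).

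Of 13 plasma cell and antibody genes, 6 rose and 4 fell over the 12 libraries, with the epithelial receptor Pigr among those that rose. Derl3 and Fkbp11, which act in the endoplasmic reticulum of secretory cells and are not confined to plasma cells, were the only list genes called over set means as well. Derl3 stood at 9.16 to 9.24 and 10.47 to 10.52 in the null sets, against 12.43 to 12.91 in wild type. It fell by 2.82 ± 0.27 (SE over libraries, and 0.425 over set means). The adjusted p was 1.96e-06 over libraries and 0.0255 over set means (limma). Fkbp11 stood at 8.56 to 8.75 and 9.73 to 9.81 in the null sets, against 11.75 to 12.64 in wild type. It fell by 2.94 ± 0.27 (SE over libraries, and 0.421 over set means), with adjusted p = 1.35e-06 and 0.0219 in the same limma fits. Both thus moved opposite to Jchain across genotypes. Sdc1, which marks plasma cells and is also made by epithelium, rose by 0.89 ± 0.073 (SE) and was not called over set means (adjusted p = 0.0599, limma). Prdm1, the factor that drives plasma cell differentiation, rose by 0.94 ± 0.14 (SE). Xbp1, a factor of secretory cells, fell by 0.27 ± 0.053 (SE) as deposited and was not called over set means (adjusted p = 0.416, limma). Nor was it called with equal linear totals (0.04, adjusted p = 0.568, limma) or quantile normalization (0.03, adjusted p = 0.625, limma).

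**Figure D2:**
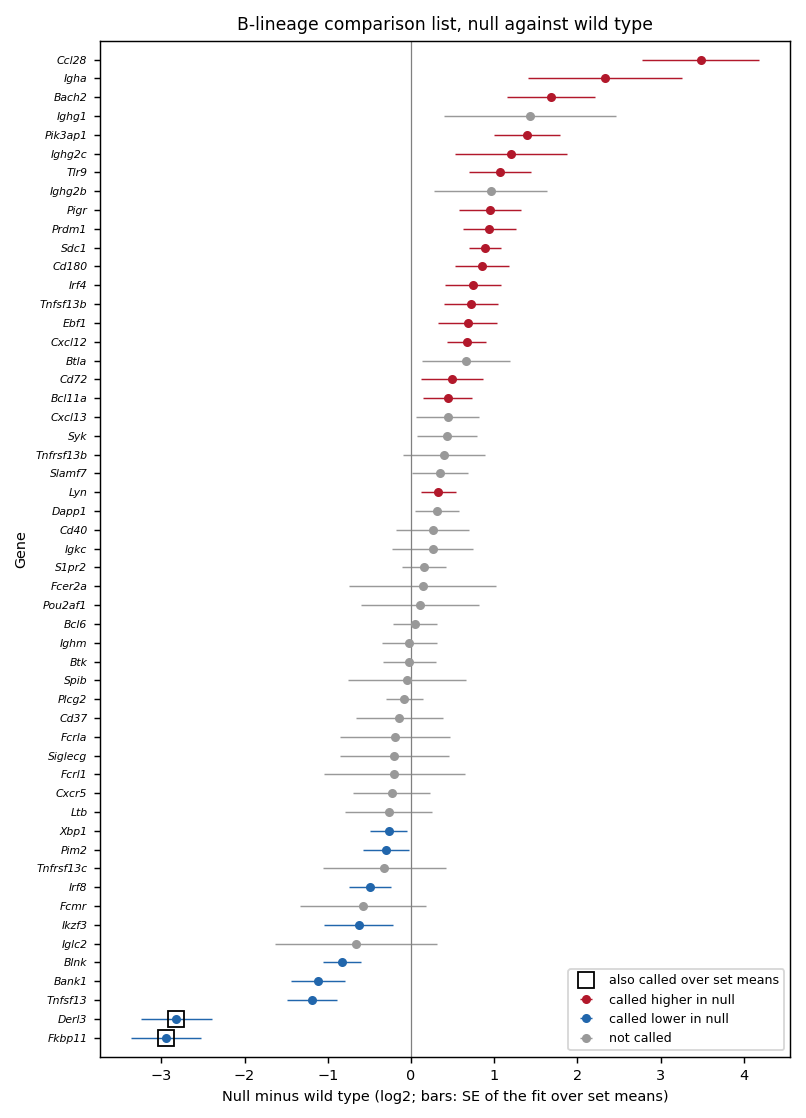
Difference between genotypes (null minus wild type, log2) for the 53 tested genes of the B lineage list, ordered by size. None is a member, and the list includes ligands and Pigr. Points are differences of means of 6 libraries, bars are SE of the fit over set means, colours show the limma call over 12 libraries, and squares mark Derl3 and Fkbp11, the 2 genes also called over set means.

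Antibody heavy chains other than IgM set null libraries 4 to 6 apart. These genes were named after their values were seen. Igha, the heavy chain of IgA, stood at 9.49, 9.48 and 9.53 in null libraries 1 to 3 and at 12.74, 12.64 and 12.74 in null libraries 4 to 6. Wild-type values were 8.53, 8.71 and 8.58 in libraries 1 to 3 and 9.01, 9.0 and 8.83 in libraries 4 to 6. Every null library was above every wild-type library, by far the most in null libraries 4 to 6. The difference of 2.33 ± 0.633 (SE) passed limma over 12 libraries (adjusted p = 0.00583) and not over set means (adjusted p = 0.153). Ighg2c, an IgG heavy chain, averaged 9.42 and 11.37 in the null sets, against 8.58 and 9.81 in the wild-type sets. Its call over 12 libraries (adjusted p = 0.0322, limma) was lost when any 1 of 6 libraries was left out (null 4, 5 or 6, wild type 1, 2 or 3). Ighg1 averaged 7.81 and 10.8 in the null sets, against 6.88 and 8.86 in the wild-type sets, and Ighg2b 8.33 and 10.44 in the null sets, against 7.96 and 8.89 in the wild-type sets. Neither was called over the 12 libraries (adjusted p = 0.0878 for Ighg1 and 0.0774 for Ighg2b, limma). Ighg1 was called without null library 3, and Ighg2b without null library 1, 2 or 3.

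As a share of the summed linear level of the 5 heavy chains measured, Ighm took 85.1% to 86.4% in libraries 1 to 3 of the null and 46.2% to 46.8% in libraries 4 to 6. In wild type it took 88.5% to 89.1% in libraries 1 to 3 and 86.1% to 86.7% in libraries 4 to 6. Igha took 5.18% to 5.5% and 28.4% to 28.9% in the null sets, against 3.63% to 4.22% and 2.8% to 2.98% in the wild-type sets. Null libraries 4 to 6 thus held a different mix of heavy chains from the other 9 libraries, and they also had the highest Jchain values. Wild-type libraries 4 to 6, highest for 7 of the 9 members, had a mix near that of both sets of libraries 1 to 3. Reads shared between near-identical IgG chains may be split by the counting, so the IgG shares are uncertain.

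Both Pigr and Ccl28, which act between plasma cells and epithelium, were higher in the null over the 12 libraries. Pigr, the epithelial receptor for polymeric antibody, averaged 14.93 and 14.33 in the null sets, against 13.49 and 13.86 in the wild-type sets, and was named after its values were seen. It rose by 0.95 ± 0.153 (SE; adjusted p = 0.000151, limma over 12 libraries) and was not called over set means (adjusted p = 0.147). Ccl28, an epithelial chemokine that recruits IgA plasma cells, stood at 5.88, 5.34 and 5.47 in null libraries 1 to 3 and at 7.77 in each of null libraries 4 to 6. In wild type it stood at 3.02, 3.06 and 3.84 in libraries 1 to 3 and at 3.61, 2.95 and 2.62 in libraries 4 to 6, near the floor. The difference was 3.48 ± 0.475 (SE; adjusted p = 4.05e-05 over libraries and 0.0524 over set means, limma). The set order of Ccl28 in the null, libraries 4 to 6 above libraries 1 to 3, was that of Jchain and Igha. Among the genes described here that order was common, held by 8 of the 9 members and called for 35 of the 53 tested list genes. Over all genes tested it was called for 33.7%. Pigr had the opposite order in the null. Of the other ligands, the plasma cell survival factor Tnfsf13 fell by 1.19 ± 0.124 (SE). Tnfsf13b, the B cell survival factor, rose by 0.72 ± 0.149 and Cxcl12 by 0.67 ± 0.115. All 3 were called over the 12 libraries and not over set means, and Tnfsf13b was not called with quantile normalization (adjusted p = 0.0603, limma).

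**Figure D3:**
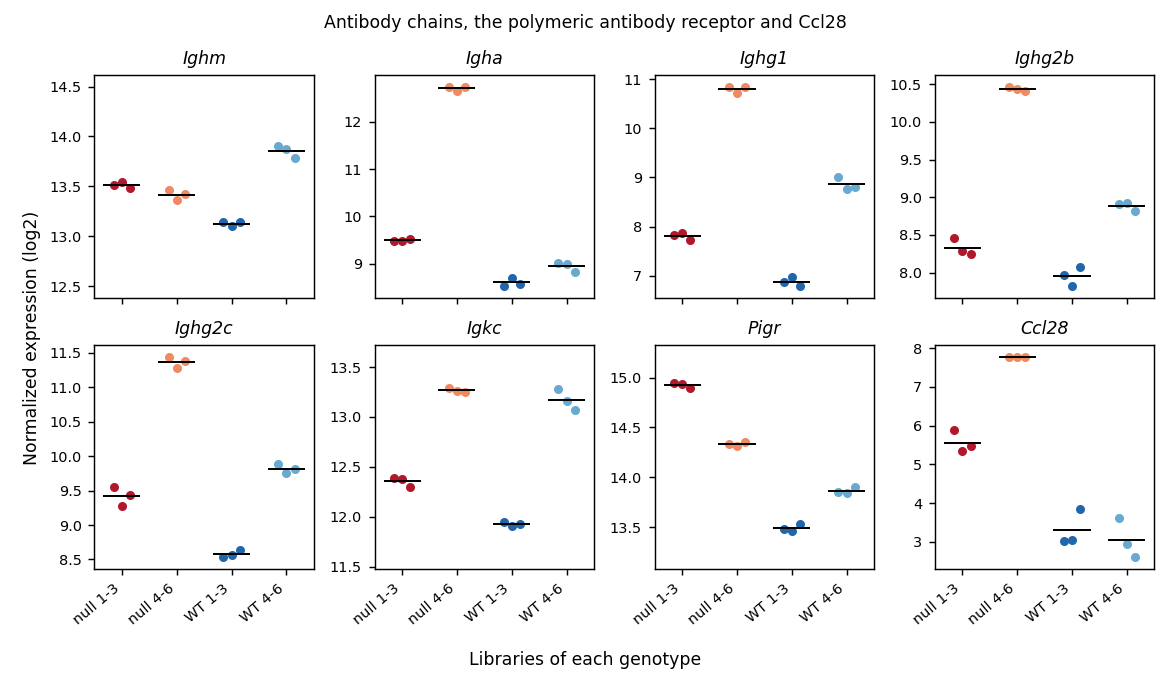
Normalized expression (log2) of 5 antibody heavy chains, the kappa light chain Igkc, Pigr and Ccl28 in each library, null sets left of wild-type sets. Points are libraries and bars are means of 3. Null libraries 4 to 6 stand highest for Igha (12.64 to 12.74) and the IgG chains, and wild-type libraries 4 to 6 for Ighm (13.78 to 13.9).

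The same list was read between sets of 1 genotype. The sets were seen in the values of all genes, so the limma calls below describe the sets and are no test of them. In wild type, 32 of the 53 genes were lower and 5 higher in libraries 1 to 3 than in libraries 4 to 6, beside 29.3% lower and 26.0% higher over all genes. The median was -0.48. In the null, 35 were lower and 10 higher in libraries 1 to 3, beside 33.7% lower and 30.3% higher over all genes, with a median of -0.41. Of the 15 surface genes, 13 were lower in libraries 1 to 3 in each genotype. Of the 3 antigen receptor genes, all 3 were lower in wild-type libraries 1 to 3, and 2 were lower and 1 (Ighm) higher in null libraries 1 to 3. Of the 13 plasma cell and antibody genes, 8 were lower and 0 higher in wild-type libraries 1 to 3, and 9 lower and 2 higher in null libraries 1 to 3. The signalling genes were mixed, with 2 of 8 higher and 4 lower in wild type and 3 higher and 3 lower in the null. So were the 7 transcription factors, with 1 higher and 3 lower in wild type and 3 higher and 4 lower in the null.

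Among genes named after their values were seen, Fcer2a, the low-affinity IgE receptor of mature B cells, averaged 3.92 and 5.62 in the null sets, against 3.44 and 5.82 in the wild-type sets. Fcrl1 averaged 3.97 and 4.77 in the null sets, against 3.25 and 5.9 in the wild-type sets.

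Markers of T cells moved with the same sets, and those of some other blood cells did not. Of 11 T cell genes, 11 were lower in null libraries 1 to 3 than in null libraries 4 to 6, and 9 were lower and 0 higher in wild-type libraries 1 to 3. Their summed linear level was 743 to 782 in libraries 1 to 3 of the null and 1170 to 1252 in libraries 4 to 6. In wild type it was 527 to 580 in libraries 1 to 3 and 967 to 1003 in libraries 4 to 6. Between genotypes 2 of the 11, Cd8a and Zap70, rose and none fell over the 12 libraries. Of 5 genes made by most leukocytes, 5 were lower in null libraries 1 to 3. In wild-type libraries 1 to 3 there were 4 lower and 1 higher, Cd52. Between genotypes 4 of these 5 rose over the 12 libraries and 1, Cd52, over set means. Cd52 averaged 14.46 and 15.24 in the null sets, against 11.86 and 10.18 in the wild-type sets. Ptprc was far lower, at 8.71 and 9.08 in the null sets and 7.42 and 8.0 in the wild-type sets. Which cells made the Cd52 reads was not tested. Of 5 red cell genes, 3 were lower in null libraries 1 to 3 and 4 in wild-type libraries 1 to 3, where Hba-a1 averaged 6.83 against 8.62 in libraries 4 to 6. Of 6 macrophage genes, 5 were lower in null libraries 1 to 3 and none higher, while in wild-type libraries 1 to 3 there were 3 lower and 3 higher. Of 6 dendritic cell genes, 2 were higher and 3 lower in null libraries 1 to 3, and none was called between the wild-type sets. Of 4 natural killer cell genes tested, 2 were lower in null libraries 1 to 3 and 1 was higher in wild-type libraries 1 to 3. Mast cell genes went the other way in the null, with 4 of 4 higher in libraries 1 to 3, and none of 4 was called in wild type. Of 4 lymphatic vessel genes, 3 were higher and 1 lower in null libraries 1 to 3, and none was called between the wild-type sets. All 4 were called higher in the null over the 12 libraries. The neutrophil markers S100a8, S100a9, Ly6g and Retnlg were below the filter. The fifth, Csf3r, was higher in the null by 1.17 ± 0.225 (SE; adjusted p = 0.000574, limma over 12 libraries) and lower in null libraries 1 to 3 than in null libraries 4 to 6. Of the lymph node stroma markers, Ccl21a averaged 8.0 and 7.51 in the null sets, against 7.88 and 8.22 in the wild-type sets. Ccl19 averaged 2.7 and 4.77 in the null sets, against 2.07 and 3.64 in the wild-type sets. The lymph node vessel gene Glycam1 averaged 1.76 and 3.58 in the null sets, against 1.98 and 4.28 in the wild-type sets. In libraries 1 to 3 Glycam1 was near the floor, with an SD of 0.74 in the null and 0.92 in wild type. Like Ccl19 and Madcam1, it was below the filter. Madcam1 averaged 2.96 and 2.7 in the null sets, against 2.74 and 2.0 in the wild-type sets. The part of other cell types in the members' set differences was not tested.

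**Figure D4:**
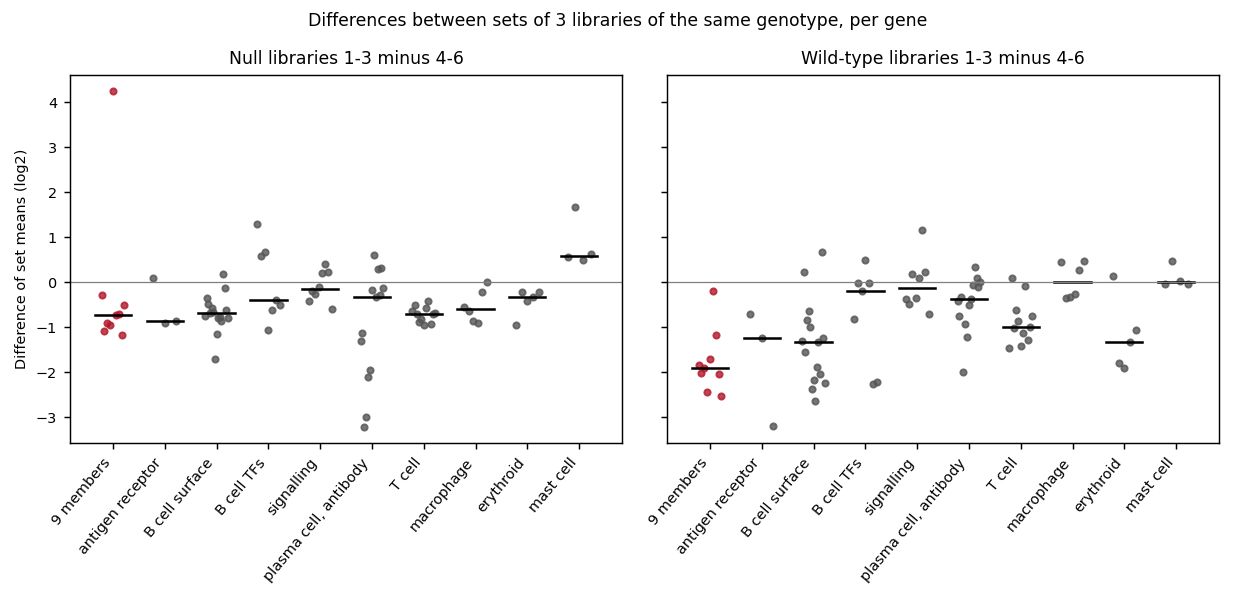
Difference between sets of 3 libraries of 1 genotype (libraries 1 to 3 minus 4 to 6, log2) for the 9 members and for other gene groups, null left and wild type right. Each point is a gene and each bar the median of its group. The members have medians of -0.74 in the null, where Cr2 stands at 4.24, and -1.91 in wild type, and the T cell genes have medians of -0.71 and -1.0.

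The genes whose pattern over the 12 libraries was most like the mean of the 9 members were Cd2, S1pr4, Trbc1, Cd37, H2-Ob, Arhgdib, Sept1 and a kappa light chain variable gene listed as ENSMUSG00000094345. Likeness was the root mean square difference between the deviations of the gene and of the members from their own means, and it was 0.20 for Cd2 and 0.26 for Sept1 on the log2 scale. Cd2 and Trbc1 are T cell genes, Cd37 and Arhgdib are leukocyte genes, and H2-Ob and the kappa variable gene belong to B cells. Without Cr2 and Jchain, a choice made after the values were seen, the genes nearest to the mean of the other 7 members were Ptprcap (0.17), H2-Ob (0.17), Klhl6 (0.19), Rhoh (0.22), Cd37 (0.22), Fcrla (0.23), Hoxa11os (0.25) and Spib (0.25). Cd37 and H2-Ob were near both means, and Cd2 and Trbc1 were not among the 8 nearest to the second. Set against the mean of the other 8 members in the same way, Blk was closest at 0.24, 6 members lay between 0.39 and 0.61, Jchain was at 0.86 and Cr2 at 2.22. For Jchain alone, a comparison made after its values were seen, genes among the nearest were Anpep (0.10), Rhou (0.12), Cldn10 (0.12) and Cd8a (0.14). For Cr2 alone, also chosen after its values were seen, the nearest were Ephx2 (0.49), Vip (0.66), Kif5c (0.68), Ptgds (0.68) and Slc4a8 (0.70). No lymphocyte gene was among the 5 nearest to Cr2.

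Transcript length also went with the set differences over all genes. The median difference of wild-type libraries 1 to 3 minus 4 to 6 was -0.30 among the 3208 tested genes of shortest transcript, whose median length was 963.5 bases. It was 0.22 among the 3208 of longest transcript, whose median length was 6533 bases. In the null the same medians were -0.26 and 0.22. Cd79a, Cd79b and Mzb1 are among the shortest, and Pax5 and Cr2 among the longest. Pax5 differed by -2.54 between the wild-type sets beside a median of 0.22 for genes of like length, and Cd79b by -2.45 beside a median of -0.30. The part of transcript length in the members' differences was not tested further.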

How the data were processed

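Poly-A RNA of prostate was sequenced on a HiSeq2000, per the labels' protocols. Builds mm9 and GRCm38.p2 and the tools DESeq, Cufflinks, TopHat and CASAVA 1.8.2 are listed in the submitters' processing notes, with no role or order. The authors deposited 1 table of normalized log2 values, 1 per gene and library, and no further logarithm or pseudocount was applied. Depth was estimated from linear values of 2400 to 5700, which are whole reads times a factor within 0.1 of a read in every library, and low values do not follow that scale.

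The 9 members and all gene lists were chosen with earlier results of these data known. Members get no test. A gene was kept (16197 in all) if 6 libraries or more reached 4. R 4.3.3 was used with limma 3.58.1, two-sided with a variance trend, fitted over the 12 libraries and again over 4 set means. The Benjamini-Hochberg adjustment ran over all genes kept, and an adjusted p under 0.05 was called. Tables and figures used Python 3.11.15. Gene names and coordinates are from GENCODE M21 on GRCm38, and promoters from RefSeq on GRCm38.p6.

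The genes named are the members, the 8 genes most like the members and the B lineage list genes called over set means. Up to 4 genes with the lowest limma p in each group of that list are named too. Of some marker lists, up to 3 genes with the highest mean, or near the floor, are named. The other marker lists are given as counts. Any other is said to be named after its values were seen, or is a marker list gene given to complete a count. Alternatives were other filters, scalings, variance models, and leaving out each library or set. The gene under study and some other genes are not reported here.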

Additional observations from a re-analysis of the deposited data

Results flagged for a closer look

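In 88 groups of 6 libraries checked, 3 single libraries stood apart by Dixon's criterion for 6 values (gap over range above 0.625). Chance gives this in about 1 in 20 groups of independent values. The libraries of a genotype lay in sets of 3, so that rate need not hold here. The lowest wild-type value of Lyn was 8.25, with the nearest library at 8.52. The lowest wild-type value of S1pr2 was 7.23, with the nearest at 7.35. The lowest null value of Tnfsf13b was 4.5, with the nearest at 4.98. None of the 9 members was among them.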

How the results depend on the processing

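The wild-type set difference of the members kept its direction and size under every alternative run (median -1.999 to -1.816, -1.909 as deposited). The null set difference kept its direction (-0.742 as deposited, -0.722 to -0.771 with 1 library left out) and moved to -0.995 under quantile normalization. The genotype median of the members (-0.215) did not, at 0.853 without wild-type libraries 4 to 6, -0.994 without wild-type libraries 1 to 3, 0.1 with equal linear totals, -0.584 with quantile normalization and -0.404 to 0.005 with 1 library left out. Filters and the variance model cannot change these medians.

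Genotype calls over all genes (10670) were 662 over set means and 5052 with the 3 libraries of a set as a random block. Of the B lineage list (26 called), 2 were called over set means, 14 with the block and 41 without wild-type libraries 4 to 6. Those higher (17) were 0, 8 and 32 in the same fits, 26 with equal linear totals and 11 with quantile normalization. Those lower (9) were 2 over set means, 5 with equal totals and 19 without wild-type libraries 1 to 3. With 1 library left out, 22 to 29 were called. Genes higher in wild-type libraries 1 to 3 (5) were 3 without the filter, 10 with equal totals and 3 to 5 with 1 library left out. Those higher in null libraries 1 to 3 (10) were 6 with equal totals.

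Without wild-type libraries 4 to 6 the genotype difference turned for Iglc2 (0.94), Ighm (0.34), Spib (1.07), Fcrl1 (1.13) and Bcl6 (-0.27), and without wild-type libraries 1 to 3 for Pou2af1 (-1.02). Xbp1 was close to no difference, and not called, with equal totals (0.04) and quantile normalization (0.03). The cause was not tested. No paired analysis was possible because the labels give no replicate numbers shared between the genotypes. Depth limits the low genes, with a median SD within sets of 0.26 for genes averaging 4 to 5, as Pax5 does, and of 0.38 for those averaging 2.5 to 4.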
